A study of Mus musculus with 9 samples.

Results

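miR-224 and miR-452 (mmu-miR-224 and mmu-miR-452 in the count table) are a pair of mouse miRNAs whose genes lie in the same intron of Gabre, the gene of the epsilon subunit of the GABA-A receptor. They are 2 of the 1164 miRNAs in a count table of small RNA from small extracellular vesicles (smEVs). The pair was chosen with its counts in these libraries known, so its levels are described here without a test.

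The smEVs were pelleted from the medium of kidney medullary (KM) cells, immortalised epithelial cells from mouse kidney, that had reached confluency and had then been kept without serum. There were 3 libraries from Bbs4-/- cells, 3 from Bbs6-/- cells and 3 from wild-type (WT) cells. Bbs4 is a subunit of the BBSome, the complex that carries cargo to and from the cilium, and Bbs6 belongs to the chaperonin complex that assembles it. Each genotype is represented by 1 cell line, so genotype and line cannot be told apart. The question addressed by the comparison is whether loss of a ciliary trafficking protein changes what is loaded into smEVs. Only miRNAs were counted, so neither the loss of Bbs4 and Bbs6 nor the level of the Gabre transcript could be looked at.

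A miRNA inside an intron is usually cut out of the transcript of its host gene. The primary transcript is cleaved to a hairpin in the nucleus, and Dicer then releases a duplex from it, of which 1 arm (5p or 3p) is loaded into an Argonaute protein. Bases 2 to 8 of the mature arm, the seed, pair with target mRNAs. miRNAs from 1 transcript are made together but may still reach different levels, since the hairpins differ in processing and the arms in stability.

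The mature arms are shown because they are the molecules that could have been sequenced, with the seed in capitals. The sequences are those of RefSeq for GRCm38.p6, and both members were matched by name.
miR-224-5p: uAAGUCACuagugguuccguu
miR-224-3p: aAAUGGUGcccuagugacuaca
miR-452-5p: uGUUUGCAgaggaaacugagac
miR-452-3p: uCAGUCUCaucugcaaagaggu

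The seeds of all 4 arms differ from each other, and among the 1679 mature miRNAs searched no other had any of these 4 seeds. The pair therefore has no seed relatives whose counts could be set beside its own. The table gives 1 count for a miRNA without naming the arm, so the 5p and 3p molecules could not be separated.

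The hairpins are shown to place the arms, here in capitals, within their precursors.
Mir224: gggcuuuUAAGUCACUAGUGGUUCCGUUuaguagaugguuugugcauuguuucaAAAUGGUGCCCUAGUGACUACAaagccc
Mir452: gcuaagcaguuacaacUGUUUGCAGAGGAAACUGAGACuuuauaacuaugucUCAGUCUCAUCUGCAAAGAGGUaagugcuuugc

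In GRCm38, Mir224 is on the minus strand of chromosome X at chrX:72261031-72261112, and Mir452 is on the same strand at chrX:72262224-72262308. Transcription on this strand runs toward lower coordinates, so Mir452 comes first. A stretch of 1111 bp lies between the hairpins. Both are in intron 6 of the 9-exon coding transcript of Gabre, an intron of 3878 bp, and overlap no exon of a protein-coding gene. Mir452 is also within intron 5 of a noncoding Gabre transcript of 6 exons. The nearest other miRNA genes on the chromosome are Mir767, 0.33 Mb toward higher coordinates, and Mir509, 4.25 Mb toward lower coordinates. Neither miR-767 nor miR-509 had a count in any of the 9 libraries.

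The total of miRNA counts ran from 176935 to 457163 over the Bbs4-/- libraries, from 192654 to 423784 over the Bbs6-/- libraries and from 64118 to 130905 over the WT libraries, so WT was the shallowest genotype. Levels are given as CPM, the number of counts per 1000000 counts of a library, after scaling with edgeR's TMM method, which corrects for libraries in which a few abundant miRNAs take up a large share. In these units 3 counts, the limit taken for a count of 0, corresponded to between 6.99 CPM in the deepest library and 36.5 CPM in the shallowest. Libraries are named by the replicate numbers of the count table. Disagreement of replicates was measured as chi-square per degree of freedom over all miRNAs with enough counts, a value that also grows with depth. Bbs6-/- library 2 stood apart, with 86.2 against library 3 and 110 against library 4. Libraries 3 and 4 of Bbs6-/- gave 12.4, and replicates of the other genotypes gave 39.8 or less. Of the 10 miRNAs fixed as epithelial markers, such as the miR-200 family, 9 were counted, and miR-194-1 was at 0 throughout. Their summed level was 62143 to 65644 CPM in Bbs4-/-, 47479 to 50849 CPM in Bbs6-/- and 37372 to 46016 CPM in WT. Most of this sum was miR-30a, with 70615 counts over all libraries, against 21045 of miR-200b, 5333 of miR-200c and 208 of miR-141. The order of the sums need not hold for each marker. The 6 blood markers summed to 170 CPM or less in any library, and the fibroblast or muscle markers to 314 CPM or less. Of the latter, miR-214 and miR-145a were at 0, and miR-199a and miR-199b, identical in every library, were summed once. The endothelial miR-126a was at 136 CPM or less. The part of these differences in the results below was not tested.

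miR-224 was present in all 9 libraries and was lowest in Bbs4-/- smEVs, intermediate in Bbs6-/- smEVs and highest in WT smEVs. miR-452 was at 0 in every library. In the Bbs4-/- libraries 1, 2 and 3, miR-224 was counted 40, 59 and 142 times. The Bbs6-/- libraries 2, 3 and 4 held 61, 144 and 233 counts of it, and the WT libraries 1, 3 and 4 held 58, 156 and 153. The raw counts alone do not show this order, because the WT libraries were shallower.

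As a level, miR-224 was at 253, 264 and 331 CPM in the Bbs4-/- libraries, a mean of 283 ± 42.0 CPM (SD, n = 3). In Bbs6-/- it was at 335, 492 and 667 CPM (498 ± 166 CPM, SD, n = 3). WT libraries had 705, 1389 and 989 CPM (1028 ± 344 CPM, SD, n = 3). No library of one genotype fell among those of another, but the neighbouring genotypes nearly touched. The spread relative to the mean was 14.9% in Bbs4-/-, 33.4% in Bbs6-/- and 33.4% in WT.

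The highest Bbs4-/- library was 4.11 CPM below the lowest Bbs6-/- library. The exact 95% Poisson interval was 278 to 390 CPM for the first and 256 to 430 CPM for the second, so the order of these libraries lies within counting error. Between the highest Bbs6-/- library (584 to 758 CPM) and the lowest WT library (535 to 911 CPM) the gap was 37.9 CPM, and these intervals overlap as well. The gap between Bbs4-/- and WT was 374 CPM, and there no interval of one genotype reached into the other. These intervals cover counting error only.

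**Figure D1:**
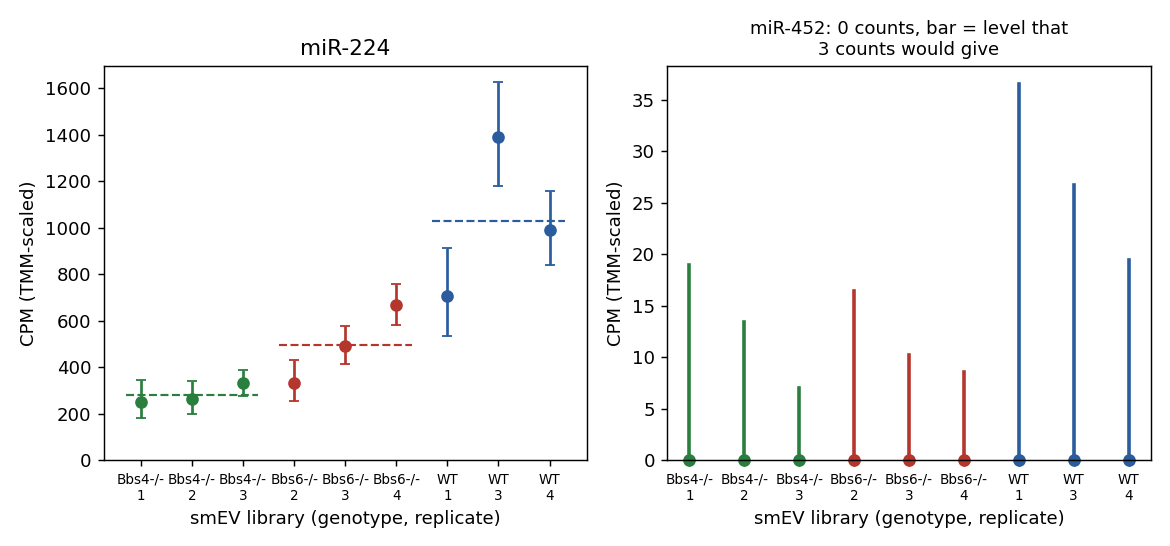
Left, level of miR-224 in each smEV library in TMM-scaled CPM, with exact 95% Poisson intervals and the mean of each genotype as a dashed line (283, 498 and 1028 CPM). Right, miR-452, which had 0 counts in every library (points); each bar ends at the level that 3 counts would give, from 6.99 to 36.5 CPM.

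The fitted difference of miR-224 between Bbs4-/- and WT was -1.97 on the log2 scale (SE 0.32), a level 3.92-fold lower in the mutant. Of the 308 miRNAs tested in this comparison, 26 (8.44%) had a more negative log2 fold change, and 34 (11.0%) had all mutant libraries below all WT libraries. Between Bbs6-/- and WT the log2 difference was -0.98 (SE 0.35), 1.98-fold lower in the mutant. A more negative value was seen for 62 of 298 miRNAs (20.8%), and 35 (11.7%) were lower without overlap. These comparisons share their WT libraries. Between the mutants themselves the log2 difference was -0.82 (SE 0.34), with miR-224 1.76-fold lower in Bbs4-/-. Here 46 of 309 miRNAs (14.9%) had a more negative value and 24 (7.77%) were lower without overlap.

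The difference was negative in every alternative that was run (other scalings, filters and sets of libraries, and DESeq2). It ran from -2.12 to -1.60 over 14 alternatives for Bbs4-/- against WT, from -1.43 to -0.75 over 14 alternatives for Bbs6-/- against WT, and from -1.11 to -0.55 over 17 alternatives for Bbs4-/- against Bbs6-/-. When every library was thinned to the 64118 counts of the shallowest, 20 draws gave -2.42 to -1.75, -1.58 to -1.005 and -1.20 to -0.45, in the same order. The fitted difference was negative in every draw. Thinning redraws the same libraries, so it covers depth only and not the spread between replicates. CPM was also taken from the plain library total instead of TMM. The level of miR-224 was then 226 to 311 CPM for Bbs4-/-, 317 to 550 CPM for Bbs6-/- and 905 to 1469 CPM for WT, without overlap. This scaling lowers the mutants in general, with 58.4% of all miRNAs tested below 0 in Bbs4-/- against WT and 63.8% in Bbs6-/-. The share of all miRNAs without overlap was not computed for it.

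Within its own library miR-224 was a moderately abundant miRNA. Ranked by count, it was at place 107, 102 and 96 in the Bbs4-/- libraries, at 94, 84 and 75 in the Bbs6-/- libraries, and at 74, 58 and 68 in the WT libraries. Between 244 and 309 miRNAs were detected per library. The place does not depend on scaling, and its order among the genotypes is that of the levels. Taken as a percentile among the miRNAs detected in the library, the rank was 61.9 to 68.9 for the Bbs4-/- libraries, 65.1 to 74.8 for the Bbs6-/- libraries and 69.7 to 79.2 for the WT libraries, and here neighbouring genotypes overlapped. In all 9 libraries together miR-224 took 1046 of 2086664 counts, or 0.0501%. CPM is a share of the miRNA counted. Fewer vesicles carrying miR-224, fewer copies in each and more of other miRNAs therefore cannot be told apart. The paper reports that both mutant lines secreted more smEVs than control cells, and the amount of miR-224 released per cell was not measured.

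No count of miR-452 was recorded in any genotype, and it was 1 of 695 miRNAs (59.7%) listed at 0 throughout. Taking 3 counts over the libraries of a genotype as the limit, its level was at most 3.70 CPM in Bbs4-/-, 3.64 CPM in Bbs6-/- and 8.59 CPM in WT. No fold between genotypes can be given, since all of them were at the floor. A level below these limits was not detectable at this depth.

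Set against that limit, miR-224 was at least 76.4-fold higher than miR-452 in Bbs4-/-, at least 137-fold higher in Bbs6-/- and at least 120-fold higher in WT by its mean level. By the total over all libraries, 1046 counts against a limit of 3, it was at least 349-fold higher. In single libraries the bound was weaker and followed the number of miR-224 counts, from at least 13.3-fold in Bbs4-/- library 1 to at least 77.7-fold in Bbs6-/- library 4. With 0.5 added to each count, the mean log2 ratio of miR-224 to miR-452 was 7.13 ± 0.93 in Bbs4-/-, 7.99 ± 0.97 in Bbs6-/- and 7.81 ± 0.81 in WT (SD, n = 3 each). The genotypes overlapped in this ratio, and as miR-452 was at 0 it carries only the count of miR-224 and the added constant.

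Other miRNA genes close together were taken as a yardstick for this imbalance. Outside the Gabre intron, 731 pairs of miRNA genes started within 10 kb of each other on the same strand. Each miRNA of these pairs was matched by name to 1 locus, which does not exclude reads from a further locus. In 422 of them both miRNAs were at 0, in 195 exactly 1 was at 0, and in 114 both were counted. In 38 pairs the stronger miRNA had at least 1000 counts, as miR-224 did.

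Over these 38 pairs the median ratio of the stronger to the weaker miRNA, with 3 counts as the least for the weaker, was 16.3. It was under 10 in 19 pairs, over 100 in 11 pairs and above the 349-fold of miR-224 over miR-452 in 8 pairs. Of the 8, 2 had a partner at 0. These were miR-206 with 3624 counts beside miR-133b, both known from muscle, and miR-20a with 1220 counts beside miR-19b-1, an entry numbered by locus. In the other 6 the weaker partner was again a locus-numbered entry, such as miR-24-1 with 12 counts beside miR-27b with 15699, or let-7f-1 with 30 beside let-7a with 109674. How reads were divided between a locus-numbered entry and the entry without the number is not given in the sources used here.

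Among the 38 pairs were 7 within introns, and these also ranged widely. The more even ones were let-7e and miR-99b in Spaca6, with a ratio of 1.13, and the pairs among miR-200a, miR-200b and miR-429 in Ttll10, with 1.42, 4.10 and 5.84. The uneven ones each held a locus-numbered entry. miR-15b had 2942 counts beside 13 of miR-16-2 in Smc4, miR-30e had 10955 beside 16 of miR-30c-1 in Nfyc, and miR-98 had 6707 beside 2 of let-7f-2 in Huwe1. Without pairs that hold a locus-numbered entry, a choice made after the counts were seen, 24 pairs were left. The one with a partner at 0 was then miR-206 with miR-133b, and the ratios of the other 23 ran from 1.01 to 61.4. Pairs of 1 cluster share members, so they are not independent.

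**Figure D2:**
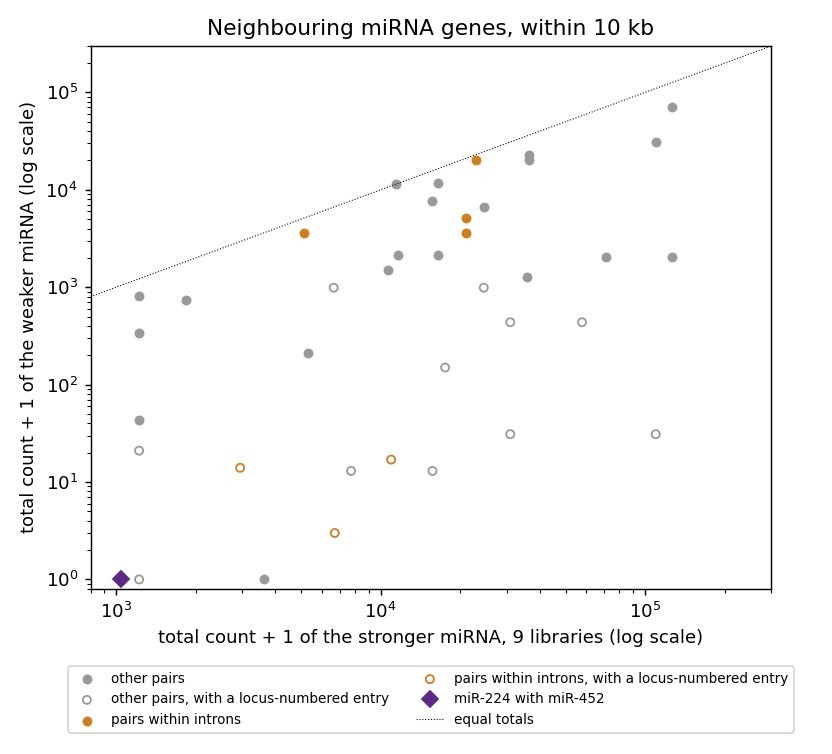
Total counts over 9 libraries of the stronger (x axis) and weaker (y axis) miRNA of each of 38 neighbouring pairs whose stronger miRNA had at least 1000 counts, both on log scales after adding 1; open circles are pairs that hold a locus-numbered entry and the dotted line marks equal totals. miR-224 with miR-452 lies on the bottom edge, where the weaker miRNA was at 0, together with miR-206 and miR-20a and their partners.

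Variation of neighbours across libraries was followed for 90 pairs in which both miRNAs had at least 9 counts and were not identical, locus-numbered entries included. Pearson's r of their log2 CPM over 9 libraries had a median of 0.38 and ran from -0.49 to 0.99, with 71 of 90 above 0. The members of a pair share their libraries and depth. For miR-224 and miR-452 no r exists, because miR-452 did not vary.

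The miRNAs whose levels most resembled those of miR-224 over the 9 libraries were miR-221, miR-676, the identical entries miR-101a and miR-101c, and miR-351. They were chosen from 179 miRNAs with at least 90 counts in total by Pearson's r of log2 CPM, so their likeness is a description. The median r of all candidates was -0.12. miR-221, made from a gene next to that of miR-222 and known to repress the cell cycle inhibitor p27, had an r of 0.88 (Spearman's rho 0.83). Its level was 5056 ± 884 CPM in Bbs4-/-, 5769 ± 477 CPM in Bbs6-/- and 7668 ± 786 CPM in WT (SD, n = 3 each), a smaller difference than that of miR-224.

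miR-676, in an intron of Eda, had an r of 0.86 (rho 0.92). It was at 28.3 ± 7.88 CPM in Bbs4-/-, 166 ± 58.6 CPM in Bbs6-/- and 234 ± 76.7 CPM in WT (SD, n = 3 each). Like miR-224 it had the order Bbs4-/-, Bbs6-/-, WT in its means. miR-101a and miR-101c had the same count in every library and an r of 0.82 (rho 0.80), with 112 ± 32.1, 140 ± 118 and 509 ± 102 CPM. miR-351, from the miR-322 cluster, had an r of 0.82 (rho 0.62), but its means in Bbs4-/- (257 ± 39.4 CPM) and Bbs6-/- (232 ± 17.6 CPM) were close together below WT (498 ± 96.3 CPM).

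Part of each correlation lay between the genotypes. Without WT libraries 3 and 4, in which miR-224 was farthest from its median, r was 0.72 for miR-221, 0.82 for miR-676, 0.66 for miR-101a and miR-101c, and 0.42 for miR-351. After each genotype's mean was subtracted, r was 0.45, 0.66, 0.71 and 0.61 in the same order. For miR-452 no likeness can be given.

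**Figure D3:**
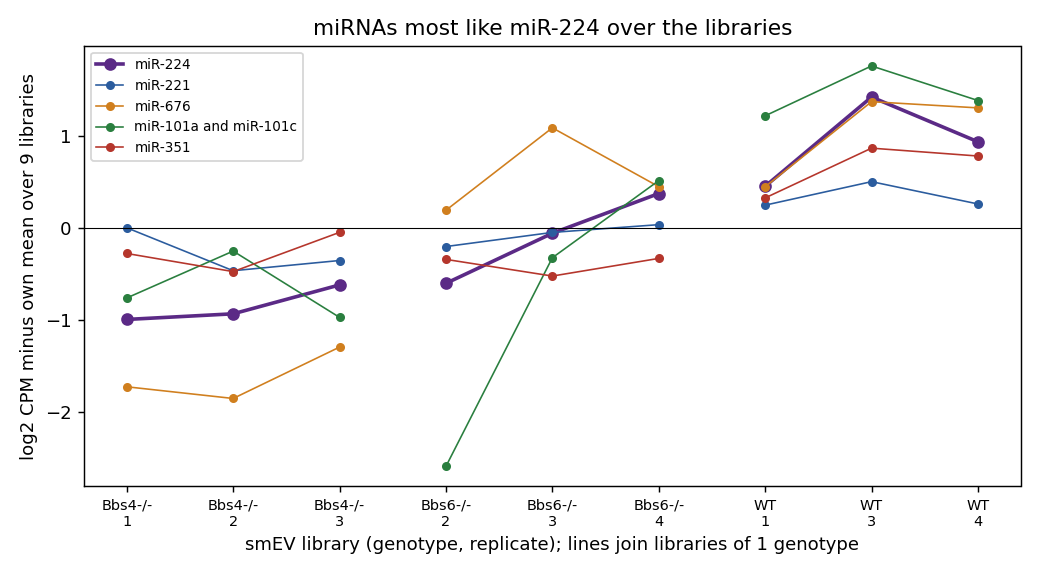
Log2 CPM of miR-224 and of the miRNAs with the highest r to it, each minus its own mean over 9 libraries, by smEV library. All of them are above their mean in every WT library; miR-101a and miR-101c fall farthest in Bbs6-/- library 2, where they had 4 counts.

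Among the 179 candidates for likeness, 20 were X-linked. Of the 5 entries most like miR-224, in which miR-101a and miR-101c are identical, 3 are X-linked (miR-221, miR-676 and miR-351). The miRNAs on the same chromosome as the pair were followed in a list of the 86 other X-linked miRNAs in the table, which includes these 3. In that list 38 had a count and 30 could be tested in each comparison. In Bbs4-/- smEVs 24 of these 30 (80.0%) had a log2 fold change against WT below 0, with a median of -0.87, against 50.6% and a median of -0.02 over all 308 miRNAs tested. In Bbs6-/- smEVs it was 26 of 30 (86.7%) with a median of -0.84, against 50.3% and -0.01 over all 298. Between the mutants 15 of 30 were below 0 and the median was -0.02, against 0.04 over all 309. Without the 3 X-linked miRNAs that resemble miR-224, 21 of 27 were below 0 in Bbs4-/- (median -0.83), 23 of 27 in Bbs6-/- (median -0.86) and 13 of 27 between the mutants (median 0.08). Both comparisons with WT rest on the same WT libraries.

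Few of these differences passed the threshold for a call, an adjusted p under 0.1 by edgeR's quasi-likelihood test with Benjamini-Hochberg adjustment together with a log2 difference of 2 or more in size. In Bbs4-/- against WT, 3 of 30 X-linked miRNAs were called, against 6.17% of all tested. Of these, 2 were higher (3.90% of all tested) and 1 was lower (2.27% of all tested). In Bbs6-/- against WT edgeR called 0, against 4.03% of all tested (2.68% higher and 1.34% lower), while DESeq2 called 1. At an unadjusted p under 0.05, 8 of 30 were lower and 0 higher in Bbs6-/-, against 7.38% and 14.8% of all tested. The same count was 15 lower and 2 higher in Bbs4-/-, against 12.7% and 13.3% of all tested, and 1 lower and 5 higher between the mutants, against 19 and 31 of all 309 tested. Between the mutants 1 was called lower in Bbs4-/- (3.33%, against 3.88% of all tested, 2.59% lower and 1.29% higher). By the adjusted p alone, 5 fell and 2 rose in Bbs4-/- (of all tested, 6.49% fell and 8.77% rose), and 6 fell and 0 rose in Bbs6-/- (of all tested, 5.37% fell and 9.73% rose). Of those that fell in Bbs4-/-, 3 are the ones that resemble miR-224. All mutant libraries were below all WT libraries for 11 of 30 in Bbs4-/- and for 11 of 30 in Bbs6-/- (36.7% each), beside the 11.0% and 11.7% of all tested given above.

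Among those that fell by the adjusted p alone were miR-351, miR-532 and miR-2137 in both mutants. miR-532, from the miRNA cluster in Clcn5, a chloride transporter of kidney endosomes, was at 272 ± 34.4 CPM in Bbs4-/-, 251 ± 69.9 CPM in Bbs6-/- and 605 ± 197 CPM in WT (SD, n = 3 each). Its log2 fold change was -1.25 (SE 0.33, adjusted p = 0.023, edgeR) in Bbs4-/- and -1.25 (SE 0.35, adjusted p = 0.0605, edgeR) in Bbs6-/-. For miR-351 the values were -1.07 (SE 0.33, adjusted p = 0.049, edgeR) and -1.07 (SE 0.31, adjusted p = 0.0614, edgeR). miR-2137 had -1.46 (SE 0.37, adjusted p = 0.0176, edgeR) in Bbs4-/- and -1.48 (SE 0.45, adjusted p = 0.0728, edgeR) in Bbs6-/-. Its WT level varied widely, at 8301 ± 5605 CPM (SD, n = 3). miR-221 fell by 0.71 on the log2 scale in Bbs4-/- (adjusted p = 0.0312, edgeR) but did not pass in Bbs6-/- (-0.38, adjusted p = 0.249, edgeR). Its neighbour miR-222 fell by 0.81 in Bbs6-/- (adjusted p = 0.0374, edgeR) but did not pass in Bbs4-/- (-0.39, adjusted p = 0.280, edgeR). These miRNAs were named from the adjusted p after their values were seen. Several X-linked entries come from 1 transcript, such as those of Clcn5 and of the miR-322 cluster, and miR-374b and miR-374c are identical in every library, so the 30 are not independent.

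The called X-linked miRNAs went both ways. miR-676 was counted 4, 5 and 16 times in Bbs4-/-, 22, 68 and 51 times in Bbs6-/-, and 12, 32 and 42 times in WT. All Bbs4-/- libraries were lower in CPM than all others, with a log2 fold change of -3.11 (SE 0.51, adjusted p = 0.000858, edgeR) against WT and -2.50 (SE 0.50, adjusted p = 0.0111, edgeR) against Bbs6-/-. miR-672, in an intron of Nexmif, was at 1183 ± 202 CPM in Bbs4-/- and 91.5 ± 79.0 CPM in WT (SD, n = 3 each), and was higher in Bbs4-/- by 3.69 on the log2 scale (SE 0.46, adjusted p = 0.000112, edgeR). In Bbs6-/- its libraries disagreed, with 3, 176 and 219 counts. The 3 counts are those of Bbs6-/- library 2, which differed from its replicates over all miRNAs as well. miR-504, in an intron of Fgf13, had 13, 29 and 12 counts in Bbs4-/-, 0, 6 and 0 in Bbs6-/-, and 0 in every WT library. Against 3 counts over the WT libraries its level in Bbs4-/- was at least 9.31-fold higher (adjusted p = 0.0142, edgeR).

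**Figure D4:**
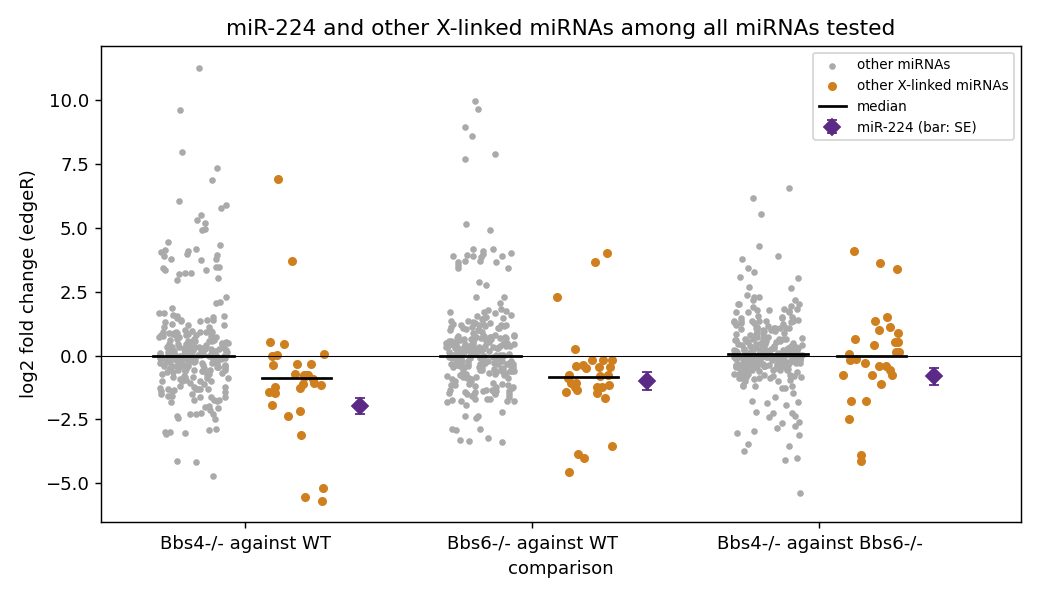
Log2 fold change (edgeR) of miR-224 with its SE, of the 30 other X-linked miRNAs tested and of the remaining miRNAs in the 3 comparisons; black lines are medians and points are spread sideways only for legibility. The X-linked medians are -0.87 and -0.84 against WT and -0.02 between the mutants, and miR-224 is at -1.97, -0.98 and -0.82.

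The list of miRNAs arranged like the pair, inside an intron of a protein-coding gene on the same strand, had members below and above 0 in similar numbers. Below 0 were 70 of 126 (55.6%) in Bbs4-/- against WT, 64 of 122 (52.5%) in Bbs6-/- against WT and 57 of 124 (46.0%) between the mutants. Over all miRNAs tested these shares were 50.6%, 50.3% and 48.2%. The list held 478 other entries, of which 200 had a count. Of 126 tested in Bbs4-/- against WT, 3 were called higher and 2 lower (3.97%, against 6.17% of all tested), with a median log2 fold change of -0.10. Of 122 in Bbs6-/- against WT, 1 was called higher and 1 lower (1.64%, against 4.03% of all tested), with a median of -0.08. Of 124 tested between the mutants, 1 was called higher and 4 lower in Bbs4-/- (4.03%, against 3.88% of all tested), with a median of 0.11.

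Among the called intronic miRNAs, miR-135b, in an intron of Lemd1, rose in both mutants. It was counted 110, 220 and 439 times in Bbs4-/-, 133, 569 and 802 times in Bbs6-/- and 2, 12 and 24 times in WT. Its log2 fold change was 3.03 (SE 0.47, adjusted p = 0.000709, edgeR) in Bbs4-/- and 4.10 (SE 0.63, adjusted p = 0.00365, edgeR) in Bbs6-/-, opposite in sign to that of miR-224. miR-181d, of the miR-181 family with genes in Nanos3, was counted 14, 10 and 8 times in Bbs4-/- and 19, 35 and 64 times in WT, and fell by 2.87 on the log2 scale (SE 0.55, adjusted p = 0.00299, edgeR). miR-615, in an intron of Hoxc5, was counted 0, 22 and 32 times in Bbs6-/- and 32, 63 and 70 times in WT. It fell by 2.93 in Bbs6-/- (SE 0.84, adjusted p = 0.0608, edgeR), and its 0 was in the divergent Bbs6-/- library 2. The 2 called X-linked miRNAs that rose, miR-504 and miR-672, and the 1 that fell, miR-676, are also in this list.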

How the data were processed

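smEV small RNA of KM cells was sequenced in 9 libraries, 3 per genotype. The authors trimmed adapters with cutadapt 1.9, merged identical reads (molecular identifiers included), discarded short ones and used miRDeep2 to obtain a count for each miRNA, of which the largest was kept where several entries existed. The deposited values are raw counts, not normalized. GRCm38 is in the submitters' processing notes; the miRBase release is not given in the sources used here.

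Groups follow the genotype that the labels give. In the table the columns of Bbs6-/- are numbered 2, 3 and 4 and those of WT 1, 3 and 4, unlike the labels, so that a column stands for its genotype but for no particular labelled sample. The paper calls the smEV pellets of a cell line independent, and p-values measure the spread between them.

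edgeR 4.0.16 in R 4.3.3 was used for all tests on the counts (quasi-likelihood test after TMM scaling, with p-values adjusted by Benjamini-Hochberg over all miRNAs tested). Each mutant was compared with WT on 6 libraries and miRNAs with at least 6 counts in total, and the mutants with each other in a fit of all 9 libraries and at least 9 counts. The SE of a log2 fold change was derived from the test, as its absolute value divided by the square root of the F statistic. Correlations used a prior count of 2. DESeq2 1.42.0, other scalings and filters, and leaving out libraries were alternatives. The tests were tried on simulated counts. The members and lists were chosen with earlier results of these data known. The miRNAs named are the members, the 5 with the highest r to a member, the called miRNAs of the X-linked and intronic lists (up to 5 per comparison and direction), and the nearest X-linked miRNA genes. X-linked miRNAs that passed by adjusted p alone and the neighbouring pairs were named after their values were seen. Positions came from RefSeq (GRCm38.p6) and GENCODE vM21, matched by name for 1153 of 1164 entries (99.1%). Plots were made in python 3.11.15 with matplotlib 3.10.9. Where the shallowest library has 0 counts a level of up to 36.5 CPM is possible, so an absence from WT is bounded less tightly than one from a mutant.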

Additional observations from a re-analysis of the deposited data

Results flagged for a closer look

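For 5 miRNAs of the X-linked and intronic lists, the change against WT differed between the mutants by the direct contrast of Bbs4-/- with Bbs6-/- (edgeR's quasi-likelihood test in a fit of all 9 libraries, Benjamini-Hochberg adjustment). miR-676 was the lower in Bbs4-/-, with a log2 difference of -2.50 (SE 0.50, adjusted p = 0.0111). miR-181d was lower by -3.11 (SE 0.63, adjusted p = 0.0111), with 14, 10 and 8 counts in Bbs4-/- and 143, 60 and 90 in Bbs6-/-. Its neighbour miR-181c was lower by -2.97 (SE 0.61, adjusted p = 0.0111), with 2, 8 and 24 counts in Bbs4-/- and 72, 96 and 56 in Bbs6-/-. miR-335, in an intron of the imprinted gene Mest, was lower by -2.78 (SE 0.53, adjusted p = 0.0108), with 5, 13 and 25 counts in Bbs4-/- and 117, 60 and 72 in Bbs6-/-. The shallower WT libraries held 19, 35 and 64 counts of miR-181d, 7, 9 and 36 of miR-181c and 10, 12 and 15 of miR-335. A contrast of the mutants alone does not show which of them departed from WT.

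miR-1943, in an intron of Tmem184b, was counted 17, 2 and 19 times in Bbs4-/- and 0 times in each Bbs6-/- library, a mean of 53.6 ± 49.9 CPM (SD, n = 3) in Bbs4-/-. Against 3 counts over the Bbs6-/- libraries it was at least 14.7-fold higher, and at least 7.31-fold higher without Bbs4-/- library 1 (fitted log2 fold change 6.55, which depends on the prior count, adjusted p = 0.0618).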

How the results depend on the processing

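The log2 difference of miR-224 was negative in all alternatives run, and leaving out each library in turn gave -2.10 to -1.60 for Bbs4-/- against WT, -1.21 to -0.75 for Bbs6-/- against WT and -1.11 to -0.55 between the mutants. With 1 instead of 0.5 added to each count, the mean log2 ratio of miR-224 to miR-452 was 6.14 in Bbs4-/-, 7.00 in Bbs6-/- and 6.81 in WT. Leaving out a library moved it between 6.62 and 7.52, 7.56 and 8.52, and 7.57 and 8.28, and with nothing added it has no value, as miR-452 was at 0.

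The lean of the X-linked list below 0 was also seen in alternatives chosen after the data were examined. Among the 20 entries with at least 90 counts, 16 were below 0 in Bbs4-/- (median -0.75) and 18 in Bbs6-/- (median -0.62). Without a library the medians of these 20 were -0.94 to -0.54 and -0.76 to -0.50, and with DESeq2's size factors -0.70 and -0.64. Over all X-linked entries tested, the medians without a library were -1.04 to -0.70 and -1.01 to -0.62. With DESeq2's size factors they were -0.83 and -0.84. Scaling by total counts shifted the median of all tested miRNAs to -0.20 and -0.44, and the X-linked medians to -1.06 and -1.21. Entries with a genotype at 0, set to their bound, left the medians at -0.87 and -0.84 and moved that between the mutants to 0.04.

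With no limit on the fold, 47, 45 and 25 miRNAs passed in Bbs4-/- against WT, Bbs6-/- against WT and between the mutants, 7, 6 and 2 of them X-linked and 16, 15 and 8 intronic. Calls in Bbs6-/- against WT became 1 X-linked and 4 intronic with total counts, 1 X-linked with DESeq2, 1 X-linked with no filter and 1 intronic at an adjusted p under 0.05. With no filter, 5 X-linked miRNAs were called in Bbs4-/-. Leaving out each library gave 16 to 23, 8 to 18 and 7 to 18 calls over all miRNAs, 2 to 4, 0 to 2 and 1 to 2 X-linked, and 4 to 8, 1 to 5 and 4 to 6 intronic. Counts moved by more than 1.5 times were 7 calls between the mutants without Bbs4-/- library 1, 2 X-linked and 5 intronic in Bbs6-/- without Bbs6-/- library 2, 2 X-linked between the mutants without Bbs6-/- library 3, 8 intronic in Bbs4-/- without WT library 3, and 1 intronic in Bbs6-/- without WT library 4. The cause was not tested.

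The numbers of the table's columns do not match those of the labels, so they were used as a replicate block only in an alternative added after the data were examined, in a fit of all 9 libraries. The deviations of the 6 same-numbered pairs of libraries from their genotype means had an r of -0.08 to 0.49. For the 21 pairs with different numbers r was -0.52 to 0.23. The highest values, 0.49 and 0.44, were those of same-numbered Bbs4-/- and WT libraries (3 and 1). Whether the numbers pair some of the samples is not known, and the main fits hold no block. With the replicate block there were 21, 20 and 14 calls in Bbs4-/- against WT, Bbs6-/- against WT and between the mutants, 3, 2 and 1 of them X-linked and 7, 5 and 5 intronic, and the log2 difference of miR-224 was -1.61, -1.06 and -0.55. For miR-452, 3 counts correspond to 6.99 CPM or more in a single library.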
